A study of Homo sapiens with 12 samples.

Results

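The genes examined are 8 through which a cell senses DNA and RNA in its cytosol or holds that response back: IFIH1, DDX58 (RIG-I, now named RIGI), MAVS, TMEM173 (STING, now STING1), TBK1, TREX1, SAMHD1 and ADAR. They were found by gene symbol, with no limit on their values, in the 57500 rows of a table of read counts per gene. The choice of these genes was made with earlier results of these data known. Of the 8 genes, 7 had enough counts to be tested, and TREX1 had 0 counts in every library. The libraries are RNA sequencing of MRC5 cells, a line of human embryonic lung fibroblasts, in 4 groups of 3 libraries. Prol are proliferating cells. Sen(IR) are cells made senescent by 20 Gy of X-rays and, per the study's methods, collected 10 to 12 days later. Sen(IR)+UK5099 are irradiated cells kept in 100 µM UK5099, an inhibitor of the mitochondrial pyruvate carrier. Sen(IR)+CTPI2 are irradiated cells kept in CTPI2, an inhibitor of the mitochondrial citrate carrier SLC25A1; the methods give 15 or 30 µM and do not say which of these was sequenced. Both inhibitors were added 1 day after irradiation, so all 3 senescent groups share the irradiation, and the same 3 Sen(IR) libraries serve as controls for both drugs. All cells are of 1 line. The study's figure legends call the replicates independent, and the labels do not say whether they were separate cultures or days, so the p-values measure the spread between these libraries.

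Cytosolic nucleic acid is read by sensor proteins that signal through a small number of adaptors. The helicases RIG-I and MDA5 bind double-stranded RNA and act through MAVS on the mitochondrial outer membrane, while cGAS binds DNA and makes a cyclic dinucleotide that activates STING on the endoplasmic reticulum. Both routes meet at the kinase TBK1, which activates the transcription factor IRF3 and so the interferon genes. TREX1 degrades DNA, SAMHD1 hydrolyses deoxynucleotide triphosphates and acts at stalled replication forks, and ADAR edits adenosine to inosine in double-stranded RNA, which keeps the cell's own RNA from being read by MDA5. In senescent cells, chromatin fragments and mitochondrial nucleic acids in the cytosol are known ligands of these sensors, and IFIH1, DDX58, SAMHD1 and the long ADAR transcript are known to be inducible by interferon in several cell types.

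The promoters of the 3 genes that rose in senescent cells are shown because interferon and NF-kB act on genes through short DNA sequences near the start. Each run has 250 bases before and 50 from the annotated start onward, read 5′ to 3′ along the gene's strand, from RefSeq on GRCh38.p14. IFIH1 is at chr2:162318635-162318934, DDX58 at chr9:32526147-32526446 and SAMHD1 at chr20:36951659-36951958, all on the minus strand. Capitals mark matches, on either strand, to the core of the interferon-stimulated response element (GAAANNGAAA) or to the kappa-B site.
IFIH1: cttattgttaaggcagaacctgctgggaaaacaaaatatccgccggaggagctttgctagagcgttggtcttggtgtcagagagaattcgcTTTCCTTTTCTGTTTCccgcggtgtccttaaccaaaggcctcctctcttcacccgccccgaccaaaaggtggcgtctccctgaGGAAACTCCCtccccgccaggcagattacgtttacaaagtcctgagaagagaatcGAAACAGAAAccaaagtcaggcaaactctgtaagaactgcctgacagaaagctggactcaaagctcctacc
DDX58: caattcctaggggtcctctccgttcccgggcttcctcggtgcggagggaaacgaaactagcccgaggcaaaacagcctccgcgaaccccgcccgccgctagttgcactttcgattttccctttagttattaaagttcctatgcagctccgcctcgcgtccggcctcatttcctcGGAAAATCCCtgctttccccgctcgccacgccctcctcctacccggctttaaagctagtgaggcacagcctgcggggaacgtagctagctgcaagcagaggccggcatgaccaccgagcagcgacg
SAMHD1: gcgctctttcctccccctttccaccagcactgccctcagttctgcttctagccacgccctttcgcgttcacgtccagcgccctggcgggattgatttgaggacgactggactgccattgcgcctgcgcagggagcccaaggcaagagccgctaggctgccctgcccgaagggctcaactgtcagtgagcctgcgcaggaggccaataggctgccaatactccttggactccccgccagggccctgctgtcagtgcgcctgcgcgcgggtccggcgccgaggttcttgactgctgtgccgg

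IFIH1 held 3 matches to the interferon element core. The first pair, at -159 to -150 and at -153 to -144 from the start, overlapped each other on the opposite strand, and the third lay at -21 to -12 on the gene's own strand. It also held 1 kappa-B match at -76 to -67, and DDX58 held 1 at the same distance from its start. The kappa-B match of IFIH1 overlapped none of its interferon element matches, and the DDX58 window held no interferon element match. The SAMHD1 window held no match to either, which says only that these letters are not in these 300 bases. Of the 34943 promoter windows of the RefSeq table, 3.57% held the interferon element core, 11.3% the kappa-B site and 0.275% both. Windows were found for 7 of the 8 genes (9 windows, since ADAR has several starts), and those of TREX1, TBK1, MAVS and ADAR held neither motif. A match is a description of the letters and not of a bound factor.

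The libraries held 20597736 to 28245693 counts each, of which mitochondrial genes took 2.36 to 4.23%. Between libraries of a group, the mean squared difference per gene was 2.25 to 12.9 times that of sampling noise, so none was a copy of another. All 10 fibroblast markers examined were above 10 CPM (counts scaled to a common library size) in every library. Their summed CPM lay between 21364 and 25402 in Prol, between 20693 and 21279 in Sen(IR), between 10908 and 11400 in the UK5099 libraries and between 18265 and 20052 in the CTPI2 libraries, so it was lowest in the group in which several sensing genes were low. Most of that fall was in the collagens COL1A1 (mean 4714 CPM in Sen(IR), 1601 with UK5099), COL1A2 (7321 and 3519) and COL3A1 (2752 and 819). FAP (145 and 13.2), PDGFRA (712 and 369), THY1 (366 and 217) and VIM (3063 and 2780) were also lower with UK5099. DCN (1363 and 1362), LUM (357 and 370) and PDGFRB (156 and 162) were about level. The part of this fall in the results was not tested. The 5 epithelial markers summed to 0.606 to 1.45 CPM over all libraries, with 3 of the 5 at 3 counts or fewer in each. The 6 leukocyte markers summed to 0.945 to 1.36 CPM in Prol and 4.11 to 6.85 CPM in the irradiated groups, with 2 of the 6 at 3 counts or fewer in every library. Of the 5 endothelial markers, TEK alone reached 10 CPM (154 to 366), while CDH5 had at most 5 counts and CLDN5 at most 7. The part of the leukocyte markers and of TEK was not tested either.

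Among the sensing genes, the RNA sensor IFIH1 (ENSG00000115267, chr2:162267074-162318684, minus strand of GRCh38, here and below from GENCODE v44) had the largest differences in Sen(IR) against Prol and with UK5099. It encodes MDA5, which binds long double-stranded RNA. Its level in the 3 Prol libraries was 4.52, 5.67 and 5.17 CPM, and in Sen(IR) it was 22.9, 18.8 and 20.2 CPM. With UK5099 it was 5.30, 4.64 and 4.22 CPM, and with CTPI2 it was 18.2, 17.9 and 20.2 CPM. The Sen(IR) and CTPI2 libraries formed the high set and the Prol and UK5099 libraries the low set, with no overlap between the sets and with overlap inside each. IFIH1 rose 4.03-fold in Sen(IR) against Prol (log2 fold change 2.01, SE 0.11, adjusted p = 4.25e-13 by edgeR's quasi-likelihood test). It fell 4.38-fold with UK5099 against Sen(IR) (log2 fold change -2.13, SE 0.11, adjusted p = 8.14e-13). Here and below, p-values are adjusted over all 16251 genes tested, and a gene is called, and said to have risen or fallen, where the adjusted p was below 0.05 and the log2 fold change was larger than 0.5 in size.

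DDX58 (ENSG00000107201, chr9:32455302-32526208, minus strand) encodes RIG-I, the sensor of short RNA with a 5′ triphosphate. It stood at 20.5, 23.5 and 22.2 CPM in Prol and at 58.4, 53.5 and 53.2 CPM in Sen(IR). With UK5099 it stood at 33.7, 32.6 and 35.7 CPM, and with CTPI2 at 54.0, 52.7 and 50.8 CPM. The UK5099 libraries lay between the other sets and overlapped neither Prol nor Sen(IR). DDX58 rose in Sen(IR) against Prol (log2 fold change 1.32, SE 0.07, adjusted p = 9.12e-14) and fell 1.62-fold with UK5099 (log2 fold change -0.70, SE 0.07, adjusted p = 1.21e-08). In GENCODE v44, 43.2% of its exon bases are shared with ENSG00000288684, a gene on the same strand that has no row in the count table.

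MAVS (ENSG00000088888, chr20:3846799-3876123, plus strand) relays the signal of both helicases. It was at 129 ± 8.76 CPM (SD, n = 3) in Prol, 111 ± 4.53 in Sen(IR), 142 ± 6.68 with UK5099 and 122 ± 4.66 with CTPI2. The lowest UK5099 library, at 134 CPM, was above the highest Sen(IR) library, at 116 CPM. MAVS had an adjusted p of 0.00217 in Sen(IR) against Prol (log2 fold change -0.22, SE 0.06) and of 3.18e-05 with UK5099 against Sen(IR) (log2 fold change 0.35, SE 0.06), both within the fold limit, so it was not called in either.

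TMEM173 (ENSG00000184584, chr5:139475533-139482935, minus strand) encodes STING, the adaptor of the DNA route. Its Prol libraries were at 54.7, 45.4 and 50.1 CPM and its Sen(IR) libraries at 50.8, 48.8 and 48.8 CPM. With UK5099 it was at 33.4, 34.3 and 30.6 CPM, and with CTPI2 at 51.0, 51.3 and 48.5 CPM. The 3 UK5099 libraries were below all 9 others, which overlapped each other. No difference was called between Sen(IR) and Prol (log2 fold change -0.02, 95% interval -0.16 to 0.12, adjusted p = 0.837). UK5099 lowered TMEM173 1.51-fold against Sen(IR) (log2 fold change -0.59, SE 0.07, adjusted p = 3.2e-07) and 1.53-fold against Prol (log2 fold change -0.61, SE 0.07, adjusted p = 4.57e-08). The call against Prol is lost with upper-quartile scaling (log2 fold change -0.47).

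TBK1 (ENSG00000183735, chr12:64452090-64502114, plus strand), the kinase on which both routes converge, was called in none of the 6 comparisons between groups. It was at 52.4 ± 2.12 CPM in Prol, 54.6 ± 0.47 in Sen(IR), 65.2 ± 3.42 with UK5099 and 55.9 ± 2.95 with CTPI2 (SD, n = 3). The UK5099 libraries, at 62.9 to 69.2 CPM, were above every other library. The difference between Sen(IR) and Prol had a 95% interval of -0.06 to 0.18 on the log2 scale (adjusted p = 0.386). With UK5099 against Sen(IR) the log2 fold change was 0.26 (SE 0.06, adjusted p = 0.00123), within the fold limit and not called.

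Of the 3 genes that degrade, deplete or edit nucleic acid, SAMHD1 (ENSG00000101347, chr20:36890229-36951893, minus strand) changed by more than the fold limit. It was at 45.8, 51.0 and 45.3 CPM in Prol and at 112, 89.6 and 93.7 CPM in Sen(IR). With UK5099 it was at 60.3, 54.8 and 63.3 CPM, and with CTPI2 at 83.6, 88.8 and 92.7 CPM. The UK5099 libraries again lay between Prol and Sen(IR) without overlap. SAMHD1 rose 2.08-fold in Sen(IR) (log2 fold change 1.06, SE 0.08, adjusted p = 4.26e-11) and fell 1.65-fold with UK5099 (log2 fold change -0.73, SE 0.08, adjusted p = 6.11e-08). TLDC2, on the opposite strand, overlaps 9.86% of its exon bases and had 89 counts over all libraries.

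ADAR (ENSG00000160710, chr1:154581695-154628013, minus strand) had the highest level per kilobase of transcript of the tested genes in every group. It was at 280 ± 19.5 CPM in Prol, 330 ± 14.9 in Sen(IR), 290 ± 11.8 with UK5099 and 336 ± 20.8 with CTPI2 (SD, n = 3). The Sen(IR) libraries, at 320 to 348 CPM, overlapped neither the Prol libraries (261 to 300 CPM) nor the UK5099 libraries (279 to 302 CPM). The log2 fold change was 0.24 in Sen(IR) against Prol (SE 0.06, adjusted p = 0.00101) and -0.19 with UK5099 against Sen(IR) (SE 0.06, adjusted p = 0.0107), both within the fold limit.

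TREX1 (ENSG00000213689, chr3:48465811-48467645, plus strand), the main cytosolic DNA exonuclease, could not be assessed. All of its 1448 exon bases are also exon bases of ATRIP on the same strand, and featureCounts by default leaves reads that fall in 2 genes uncounted; whether the authors changed this is not given in the sources used here. ATRIP itself had 2 to 13 counts a library and 104 in all. The 0 counts in all 12 libraries are therefore given with no statement on the level of TREX1.

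**Figure D1:**
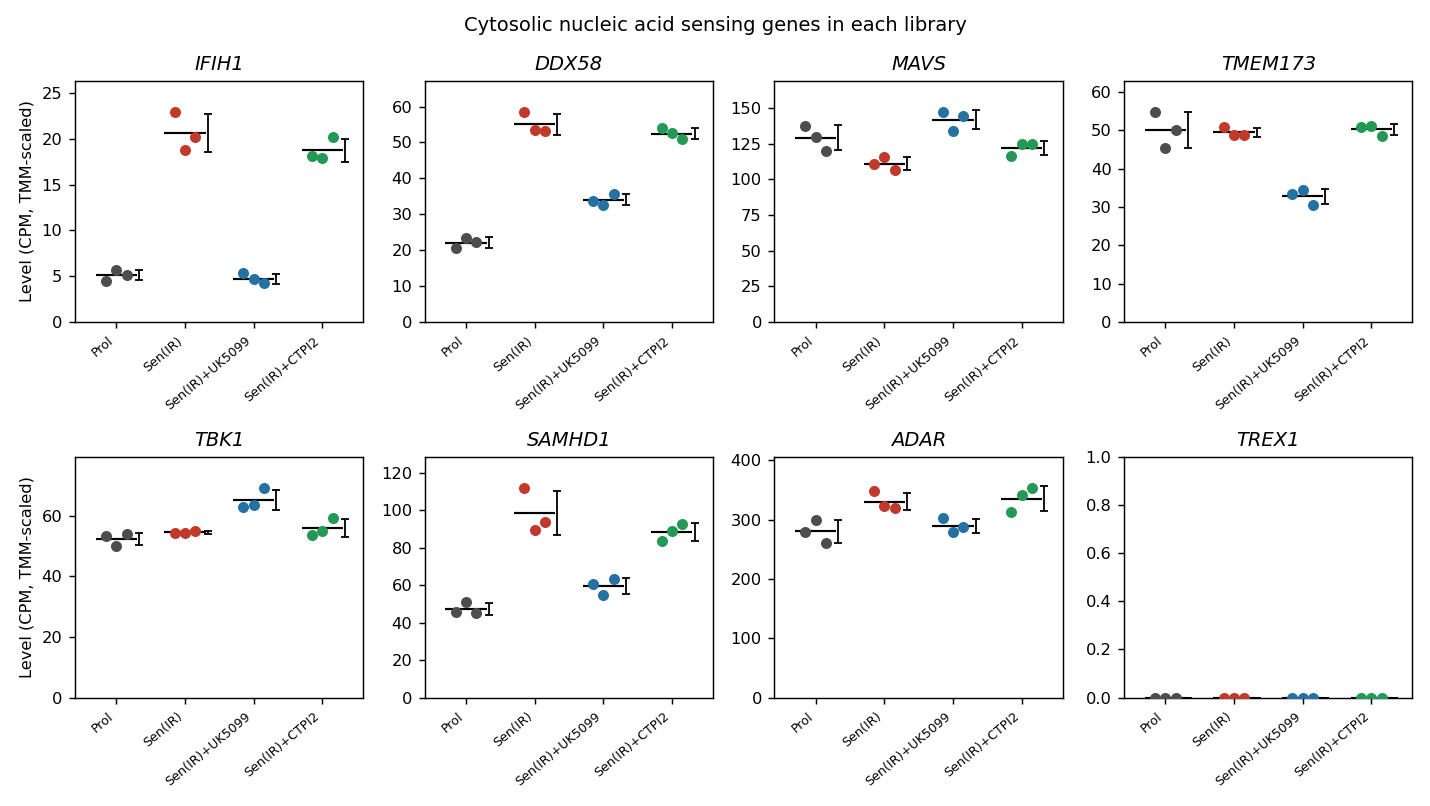
Level of each gene (TMM-scaled CPM, linear axis from 0) in the 3 libraries of each group; points are libraries, lines are group means and bars beside them ± 1 SD (n = 3). IFIH1, DDX58 and SAMHD1 are high in Sen(IR) and CTPI2, TMEM173 is low with UK5099 alone, and TREX1 is at 0 throughout.

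In Sen(IR) against Prol, 3 of the 7 tested genes were called higher (IFIH1, DDX58 and SAMHD1), where 24.8% of all genes tested were, and 0 were called lower, where 22.4% were. At an adjusted p under 0.05 without a fold limit, 5 of 7 passed, against 68.7% of all genes, and the libraries of 6 of 7 did not overlap, against 70.9%. These last shares are near the background. DESeq2 also called 3 higher and 0 lower. The median log2 fold change of the 7 genes was 0.24, beside 0.01 over all genes.

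With UK5099 against Sen(IR), 4 of the 7 genes were called lower (IFIH1, SAMHD1, DDX58 and TMEM173), where 12.1% of all genes were, and 0 were called higher, where 8.76% were. DESeq2 called 4 lower and 0 higher. All 7 had an adjusted p under 0.05, beside 45.4% of all genes, and the libraries of all 7 did not overlap, beside 56.6%. Their median log2 fold change was -0.59, beside 0.01 over all genes. The same Sen(IR) libraries enter both of these comparisons, which are therefore not independent of each other.

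In the comparison of UK5099-treated cells with Prol, Sen(IR) libraries enter the filter, the scaling and the estimate of spread, but not the 2 group means. IFIH1 was not called (log2 fold change -0.12, 95% interval -0.39 to 0.15, adjusted p = 0.418), and its direction turned with upper-quartile scaling (0.02). DDX58 was 1.54-fold above Prol (log2 fold change 0.63, SE 0.07, adjusted p = 3.45e-08), and SAMHD1 had a log2 fold change of 0.33 (SE 0.08, adjusted p = 0.000681) within the fold limit. TBK1 had a log2 fold change of 0.32 (SE 0.06, adjusted p = 5.42e-05), also within it. In all, 1 of 7 genes was called higher (DDX58), where 26.9% of all genes were, and 1 lower (TMEM173), where 26.2% were.

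**Figure D2:**
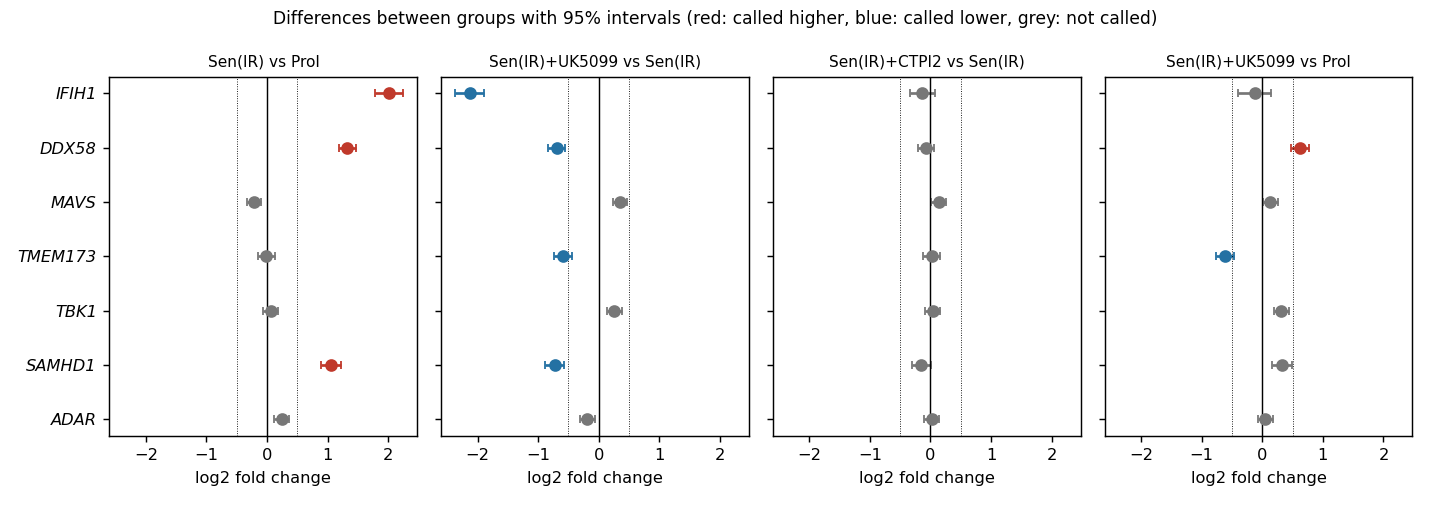
Log2 fold changes (x axis) of the 7 tested genes with 95% intervals in 4 comparisons; red and blue points were called higher and lower, grey points were not called, and dotted lines mark ± 0.5. IFIH1 has the largest difference in the first and second panels (2.01 and -2.13), and no point is coloured in the CTPI2 panel.

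CTPI2 against Sen(IR) gave 0 called genes of 7, where 0.166% of all genes were called in either direction. DESeq2 also called 0. At an adjusted p under 0.05 without the fold limit 0 of 7 passed, beside 0.486% of all genes. At an unadjusted p under 0.05 there was 1 of 7, beside 7.27% of all genes. That gene was MAVS (log2 fold change 0.14, 95% interval 0.02 to 0.26, unadjusted p = 0.0284, adjusted p = 0.605), which was also the 1 of 7 genes whose libraries did not overlap, beside 15.1% of all genes. The interval of the difference was -0.34 to 0.07 for IFIH1, -0.20 to 0.07 for DDX58 and -0.31 to 0.00 for SAMHD1. It was -0.12 to 0.16 for TMEM173, -0.09 to 0.16 for TBK1 and -0.10 to 0.14 for ADAR. For all 7 genes, a change as large as the fold limit therefore lay outside the 95% interval, while smaller changes were not excluded by it.

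The difference between the drugs was tested directly, at the doses used, which were not matched. UK5099 gave a lower level than CTPI2 for IFIH1 (log2 fold change -1.99, SE 0.11, adjusted p = 3.15e-12), DDX58 (-0.63, SE 0.07, adjusted p = 6.81e-08), TMEM173 (-0.62, SE 0.07, adjusted p = 1.97e-07) and SAMHD1 (-0.57, SE 0.08, adjusted p = 2.27e-06). These were 4 of 7 called lower, where 11.7% of all genes were, and 0 were called higher by edgeR or DESeq2, where 8.2% were. MAVS and TBK1 each had a log2 fold change of 0.22 and ADAR one of -0.21, with adjusted p of 0.00418, 0.00399 and 0.00513 and within the fold limit. All 7 thus had an adjusted p under 0.05, beside 44.5% of all genes, and none of the 7 had overlapping libraries, beside 53.6% of genes without overlap. In CTPI2-treated cells against Prol, 3 of 7 were called higher, where 24.8% of all genes were, and 0 lower by either tool, where 21.9% were. IFIH1 was 3.66-fold, DDX58 2.38-fold and SAMHD1 1.87-fold above Prol. Because these are whole-culture RNA measurements, fewer cells with a transcript and less of it per cell cannot be told apart.

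The order of the 4 groups differed between genes. For IFIH1 it ran Sen(IR), CTPI2, Prol, UK5099, and the only neighbours that differed beyond their spread were CTPI2 and Prol. For DDX58 and SAMHD1 it ran Sen(IR), CTPI2, UK5099, Prol, and only Sen(IR) and CTPI2 did not differ. For TMEM173 the CTPI2, Prol and Sen(IR) levels did not differ from neighbour to neighbour, and UK5099 stood below them. TBK1 was highest with UK5099, which differed from CTPI2, while the steps from CTPI2 to Sen(IR) and from Sen(IR) to Prol did not pass the test. MAVS was also highest with UK5099, next to Prol (log2 difference 0.13, adjusted p = 0.0398, with overlapping libraries), and the steps from Prol to CTPI2 and from CTPI2 to Sen(IR) did not pass the test. ADAR had CTPI2 and Sen(IR) at the top and UK5099 and Prol below, and the step between these pairs was the one that passed (adjusted p = 0.0107).

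Compared between genes as CPM per kilobase of the canonical transcript, ADAR had the highest level in Prol (42.4 ± 2.95), followed by TMEM173 (23.1 ± 2.13), TBK1 (17.3 ± 0.70), MAVS (11.02 ± 0.75), SAMHD1 (10.2 ± 0.68), DDX58 (4.76 ± 0.33) and IFIH1 (1.43 ± 0.16; SD, n = 3). In Sen(IR), per kilobase, SAMHD1 reached 21.2 ± 2.53, beside 22.8 ± 0.53 for TMEM173, and DDX58 reached 11.9 ± 0.63, above MAVS at 9.47 ± 0.39. IFIH1 stayed the lowest of the tested genes at 5.77 ± 0.58 CPM per kilobase. These levels depend on which transcript the cells use, and the MAVS transcript taken here is 11731 bases long.

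The patterns over the 12 libraries were compared after centring the log2 CPM of each gene on its own mean. Of 12141 candidate genes, those nearest to IFIH1 were MT1L (root mean square difference 0.13) and NFKBIA (0.20), where the SD of IFIH1 itself was 1.05. MT1L belongs to the metallothionein family, whose members share sequence, so its counts are uncertain, and NFKBIA encodes an inhibitor of NF-kB. Nearest to SAMHD1 were PARP14 (0.09) and UBE2L6 (0.10), where the SD of SAMHD1 was 0.45. Nearest to DDX58 were EXT1 (0.06) and TNFRSF10B (0.08), where the SD of DDX58 was 0.56. TMEM173 was nearest to TM4SF1 (0.06) and XPNPEP1 (0.06), TBK1 to RNF185 (0.05) and FBXW11 (0.05), MAVS to ATXN1L (0.04) and MYOF (0.05), and ADAR to ASCC3 (0.05) and NBAS (0.05). Between the sensing genes themselves, MAVS and TBK1 (0.12) and DDX58 and SAMHD1 (0.15) were close, while IFIH1 and MAVS (1.12) were far apart. These distances are a description, and they are smaller for genes that vary little.

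The other genes of the pathway were counted in 6 lists of 52 genes, of which 48 were tested. These lists, too, were chosen with earlier results of these data known. In Sen(IR) against Prol, 22 of the 48 were called higher and 11 lower, beside 24.8% and 22.4% of all genes. With UK5099 against Sen(IR), 1 was called higher and 22 lower, beside 8.76% and 12.1%. With CTPI2 against Sen(IR), 0 were called higher and 2 lower, beside 0.166% in either direction.

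The RNA sensors and effectors hold the helicase DHX58, the endosomal receptor TLR3, the kinase EIF2AK2 and the OAS enzymes, among others. In Sen(IR), 4 of the 7 rose and 0 fell (by DESeq2 as well), beside 24.8% and 22.4% of all genes. OAS2, an oligoadenylate synthetase activated by double-stranded RNA, went from 0.25 to 27.9 CPM (log2 fold change 6.81, SE 0.29, adjusted p = 2.08e-15), and DHX58 from 1.23 to 6.48 CPM (2.39, SE 0.18, adjusted p = 8.89e-11). OAS1 had at most 2 counts in a Prol library and 105 to 167 in Sen(IR), at least 49.1-fold higher against a floor of 3 counts a library. With UK5099, 4 of 7 fell, beside 12.1% of all genes. OAS1 again had at most 2 counts a library and was at least 51.4-fold lower than in Sen(IR). OAS2 fell to 0.91 CPM (log2 fold change -4.93, SE 0.23, adjusted p = 5e-14), and OAS3, which was not called in Sen(IR) against Prol, fell from 21.7 to 1.39 CPM (-3.99, SE 0.22, adjusted p = 1.53e-12). DHX58, at 4.71 CPM with UK5099, was within the fold limit and not called (-0.46, SE 0.15, adjusted p = 0.0145).

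Of the 3 DNA sensors tested, 2 fell in Sen(IR), beside 22.4% of all genes. CGAS, which encodes the sensor upstream of STING, went from 16.2 to 4.20 CPM (log2 fold change -1.96, SE 0.14, adjusted p = 1.63e-11), and IFI16 from 138 to 94.4 CPM (-0.55, SE 0.06, adjusted p = 5.85e-08). The IFI16 difference fell within the fold limit with upper-quartile scaling (-0.43) and without Prol replicate 2 (-0.48). With UK5099 against Sen(IR) 0 of 3 were called, beside 20.8% of all genes, with 0 at an unadjusted p under 0.05 and 0 by DESeq2. AIM2 and ZBP1 had at most 3 counts in any library and were not tested.

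Among 8 adaptors, kinases, ligases and transcription factors, 3 were called higher in Sen(IR), beside 24.8% of all genes, and 2 by DESeq2. IKBKE, the kinase related to TBK1, went from 11.4 to 22.8 CPM (log2 fold change 1.00, SE 0.09, adjusted p = 5.24e-10), RNF135, a ubiquitin ligase of RIG-I, from 11.1 to 18.6 CPM (0.74, SE 0.08, adjusted p = 5.97e-08), and the interferon regulatory factor IRF7 from 1.41 to 2.11 CPM (0.59, SE 0.25, adjusted p = 0.0405). The IRF7 call was lost with DESeq2 (adjusted p = 0.0901), with no low-count filter (edgeR adjusted p = 0.0642), and without Prol replicate 1 or 3 or Sen(IR) replicate 1 or 3 (log2 fold change 0.42 to 0.65). With UK5099, 4 of the 8 fell, beside 12.1% of all genes. They were led by IKBKE (from 22.8 to 7.45 CPM, log2 fold change -1.61, SE 0.09), IRF7 (-1.28, SE 0.27) and TRIM25 (-0.83, SE 0.06), with adjusted p of 1.4e-12, 0.000468 and 4.05e-11. TBK1, by contrast, had a log2 fold change of 0.26 in that comparison and was not called.

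Among 8 genes of nucleic acid clearance, 5 fell and 1 rose in Sen(IR), beside 22.4% and 24.8% of all genes. RNASEH2A, the catalytic subunit of RNase H2, fell from 31.3 to 4.28 CPM (log2 fold change -2.87, SE 0.12, adjusted p = 4.39e-15), the editing enzyme ADARB1 from 70.4 to 13.6 CPM (-2.37, SE 0.09, adjusted p = 6.12e-16), and RNASEH2B from 27.7 to 12.2 CPM (-1.19, SE 0.10, adjusted p = 5.42e-10). ADAR, which like ADARB1 edits double-stranded RNA, had a log2 fold change of 0.24 in the same comparison. With UK5099, RNASEH2A fell further (log2 fold change -0.76, SE 0.16, adjusted p = 0.000596) and ENPP1, which hydrolyses the product of cGAS, rose from 11.7 to 16.7 CPM (0.51, SE 0.10, adjusted p = 0.000198). ENPP1 was within the fold limit without Sen(IR) replicate 2 or 3 or UK5099 replicate 2 (log2 fold change 0.46 to 0.49).

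Among 8 genes that handle mitochondrial nucleic acid or open the outer membrane, 4 fell in Sen(IR), beside 22.4% of all genes. PNPT1, a mitochondrial RNA-degrading enzyme, fell from 65.9 to 28.3 CPM (log2 fold change -1.22, SE 0.08, adjusted p = 4.1e-12), TFAM, which packs mitochondrial DNA, from 58.1 to 35.1 CPM (-0.73, SE 0.07, adjusted p = 1.41e-09), and the channel VDAC3 from 164 to 105 CPM (-0.65, SE 0.05, adjusted p = 2.99e-10). With UK5099 1 of the 8 was called lower, near the 12.1% of all genes: BAK1 (from 17.9 to 12.2 CPM, log2 fold change -0.56, SE 0.09, adjusted p = 3.41e-05).

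All 14 tested genes of interferon output were called higher in Sen(IR), beside 24.8% of all genes, with a median log2 fold change of 2.49. IFI44L went from 0.56 to 14.3 CPM (log2 fold change 4.67, SE 0.30, adjusted p = 5.44e-12), RSAD2 from 3, 0 and 5 counts in the Prol libraries to 67, 52 and 72 in Sen(IR) (4.72, SE 0.53, adjusted p = 4.67e-08, and 5.43 without Prol replicate 3), and BST2, with at most 3 counts in a Prol library, was at least 29.4-fold higher. With UK5099, 12 of the 14 fell, beside 12.1% of all genes, with a median of -3.00. IFI44L had 17, 2 and 7 counts in the UK5099 libraries (log2 fold change -5.38, SE 0.33, adjusted p = 8.12e-12, and -6.35 without UK5099 replicate 1). RSAD2 had 0, 0 and 7 counts there (adjusted p = 1.05e-07), so the size of its fall rests on UK5099 replicate 3. OASL, at 3 counts or fewer in each UK5099 library, was at least 14.4-fold lower. IRF9 (log2 fold change -0.36, SE 0.25, adjusted p = 0.257) was not called with UK5099. IRF9 and IFI6 share 23.9% and 23.1% of their exon bases with another gene on the same strand. IFNB1, the interferon at the end of the route, had at most 3 counts in any library and was not tested, and IFNL1 had at most 1.

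With CTPI2 against Sen(IR), the 2 called genes were both of this list: IFI6 (from 157 to 97.5 CPM, log2 fold change -0.68, SE 0.11, adjusted p = 0.00286) and MX1 (from 80.9 to 54.9 CPM, -0.56, SE 0.13, adjusted p = 0.0428). DESeq2 called neither of them (adjusted p = 0.0587 for IFI6 and 0.212 for MX1) and instead called IFI44 (log2 fold change -0.55, adjusted p = 0.0388), which edgeR did not call (adjusted p = 0.0618). At an unadjusted p under 0.05 there were 11 of 14, beside 7.27% of all genes, and 12 of 14 had a negative log2 fold change, beside 49% of all genes, with a median of -0.42. The 14 genes share the same 3 Sen(IR) libraries, so they are not separate results. Sen(IR) replicate 1 was the highest of its group for MX1 (108, beside 62.2 and 72.8 CPM) and IFI6 (191, beside 141 and 137). It was not the highest for OASL or RSAD2. Without this library, IFI6 had a log2 fold change of -0.51 (edgeR adjusted p = 0.0498). The part of this library in the list counts was not tested. IFI6 lost its call without CTPI2 replicate 2 (adjusted p = 0.0554). MX1 lost its call without any 1 of the CTPI2 libraries, without Sen(IR) replicate 1 or 3, or without UK5099 replicate 3, with log2 fold changes of -0.30 to -0.63 in these fits. The other 5 lists had 0 called genes by edgeR and by DESeq2, and at an unadjusted p under 0.05 there were 3 of the 7 RNA sensors and effectors, 1 of the 8 clearance genes and 0 in the other 3 lists.

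**Figure D3:**
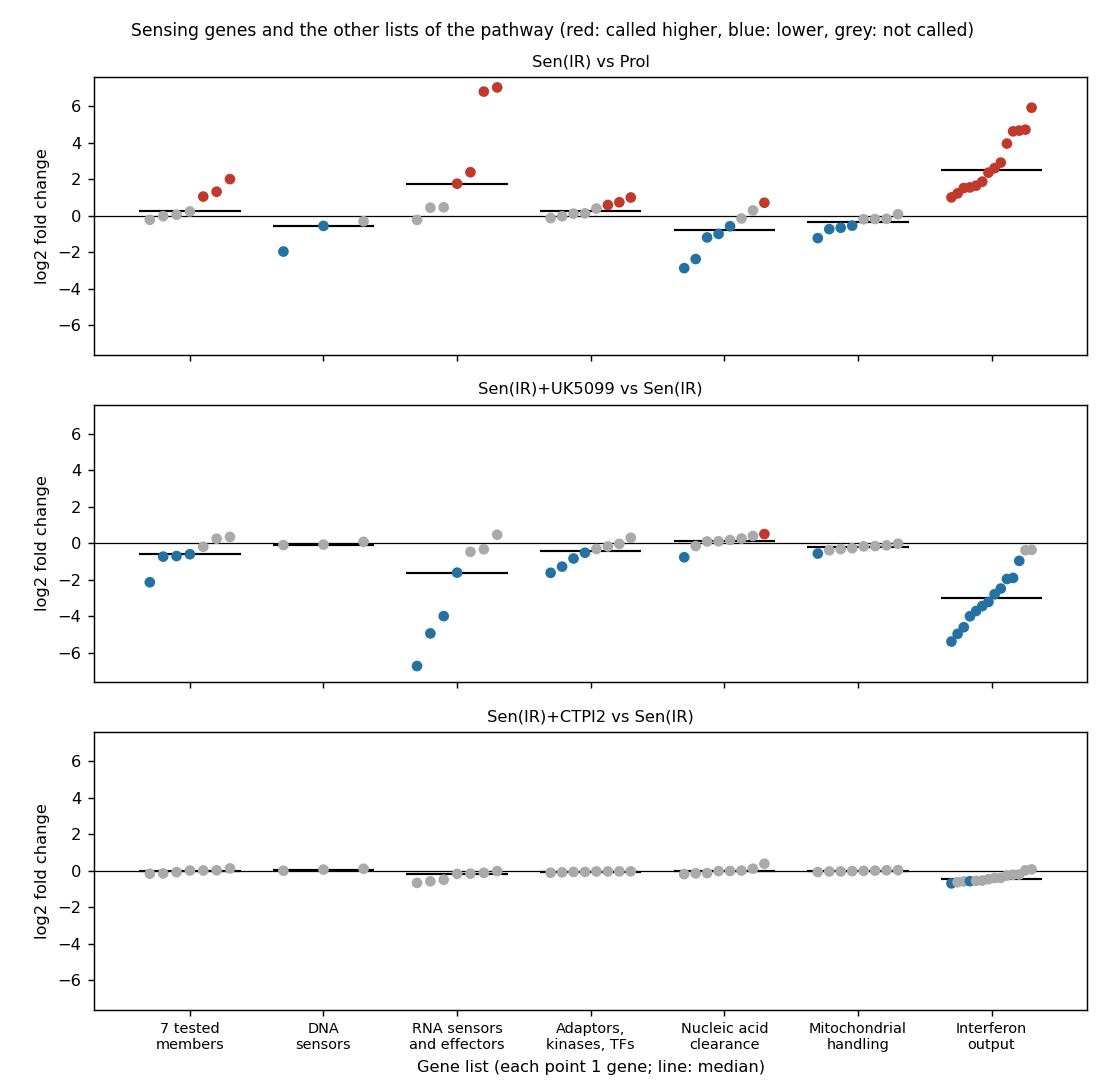
Log2 fold change (y axis) of every tested gene in the 7 sensing genes and the 6 other lists of the pathway, for the 3 comparisons named above the panels; points are genes, lines are medians, red and blue were called higher and lower. Interferon output lies above 0 in Sen(IR) and below 0 with UK5099 (medians 2.49 and -3.00), and the points lie nearer to 0 with CTPI2 (median -0.42); fitted values of OAS1, BST2 and OASL near the floor depend on the prior count.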

How the data were processed

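RNA sequencing counts of 12 MRC5 libraries, 3 in each of 4 groups, were analysed. Per the methods and the submitters' processing notes, the authors used Trimmomatic 0.36 for trimming and STAR 2.5.2b for alignment to GRCh38, and counted reads per gene with featureCounts of Subread 1.5.2. The deposited values are raw counts, not normalized, and whether counting used strand is not given in the sources used here. Library totals of 20597736 to 28245693 counts set the precision.

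The tests used edgeR 4.0.16 (R 4.3.3). A low-count filter (filterByExpr) left 16251 genes with 99.9% of the counts. TMM scaling was applied, and the quasi-likelihood model (glmQLFit, glmQLFTest) was fitted to all 12 libraries together with no covariate. Benjamini-Hochberg adjustment ran over all genes tested. Calls required an adjusted p below 0.05 and a log2 fold change larger than 0.5 in size. The SE is the absolute log2 fold change divided by the square root of F, and the intervals are 95%. Replicate CV, from the dispersion common to all genes and groups, was 6.12%. Genes with at most 3 counts in each library of a group are given as bounds against that floor, for counting error only.

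The sensing genes and the pathway lists were chosen with earlier results of these data known. All sensing genes are named, with up to 3 called genes of largest absolute log2 fold change per list in the 3 main comparisons, and the 2 genes nearest in pattern with a mean log2 CPM above 1. CGAS, OAS, IFI6, MX1 and other list genes follow that rule. AIM2, ZBP1, IFNB1, IFNL1, IRF9, IFI44, BAX, RNASEH2C and TICAM1 were named after their values were seen. Values of some list genes are not reported here. Positions and overlaps came from GENCODE v44, promoters from RefSeq on GRCh38.p14. The fits were tested on simulated data. Alternatives were DESeq2 1.42.0, RLE and upper-quartile scaling, no low-count filter, 2 groups in the fit, a replicate block, other limits, and leaving out each library.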

Additional observations from a re-analysis of the deposited data

How the results depend on the processing

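Every call of a sensing gene held in each fit that left out 1 library and with DESeq2, RLE scaling, no low-count filter, only the 2 compared groups, and the replicate block. Groups share replicate numbers, but same-numbered libraries did not deviate together over all tested genes (correlations of -0.05 to 0.04 over 18 pairs). These correlations could miss a shared culture or day that affects few genes, so whether the numbers pair libraries is not known. With the replicate block 7649 genes were called in Sen(IR) against Prol (7677 without), 3360 with UK5099 against Sen(IR) (3386) and 25 with CTPI2 (27), and the same 3, 4 and 0 sensing genes were counted. Upper-quartile scaling ended the calls of IFI16, RNASEH2C and BAX in Sen(IR) against Prol and of TICAM1 for UK5099 against Sen(IR), which was also lost without Sen(IR) replicate 2, as was RNASEH2C without Prol replicate 3. It moved the median of all genes to 0.13 in Sen(IR) against Prol, 0.15 for UK5099 against Prol and 0.12 for CTPI2 against Prol; there TMEM173 in Sen(IR) against Prol (0.104), IFIH1 for UK5099 against Prol (0.0200) and MAVS for CTPI2 against Prol (0.0310) turned positive, all uncalled, and 1 sensing gene was called for UK5099 against Prol. With the fold limit raised to 1 (log2), 1 sensing gene was called for UK5099 against Sen(IR), 1 against CTPI2 and 0 against Prol. At this limit 0 pathway genes were called for CTPI2 against Sen(IR) and 15 for UK5099 against Prol. The shares of all genes called at this limit are not given here, so these counts have no background beside them. With no fold limit, 5 of 7 sensing genes passed in Sen(IR) against Prol, near the 68.7% of all genes. All 7 passed for UK5099 against Sen(IR), beside 45.4% of all genes, and 7 against CTPI2, beside 44.5%. Of the 48 pathway genes, 37 passed for UK5099 against Sen(IR) and 37 against CTPI2, beside the same shares. For UK5099 against Prol, 5 sensing genes passed, and the share of all genes is not given here. The 2 pathway genes called for CTPI2 against Sen(IR) became 1 with DESeq2, 5 with no low-count filter, 7 at an unadjusted p under 0.05 with the same fold limit, and 0 to 3 on leaving out 1 library. Other small differences changed sign on leaving out 1 library, none of them called: TMEM173 in Sen(IR) against Prol (-0.0809 to 0.0504), TMEM173 for CTPI2 against Prol (-0.0583 to 0.0730, with -0.0046 and -0.0085 without CTPI2 replicates 1 and 2), and TBK1 (-0.0083 to 0.064) and ADAR (-0.015 to 0.071) for CTPI2 against Sen(IR). The cause of these shifts was not tested, beyond the smaller number of libraries. IFNB1, AIM2 and ZBP1 had 3 counts or fewer in each library, too few to test at this depth.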
